A study of Mus musculus with 4 samples.

Results

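Messenger RNA on polysomes was examined for 9 secreted growth, angiogenic and neurotrophic factors in mouse ADSCs, which the series title places among mesenchymal stem cells. The factors were the heparin-binding cytokines Mdk (midkine) and Ptn (pleiotrophin), the vascular endothelial growth factors Vegfa, Vegfb and Vegfc, the hepatocyte growth factor Hgf, the fibroblast growth factors Fgf2 and Fgf7, and the neurotrophin Bdnf. They were taken by symbol from a table of 18200 genes, and all 9 were found. The study compared polysome RNA of wild-type cells given a scrambled control (2 libraries) with that of wild-type cells given an shRNA against Ifit1 (2 libraries), replicate 1 of each in batch 1 and replicate 2 in batch 2. Nothing says that replicates came from separate cultures, so a p-value here reflects library-to-library spread that may be technical. The promoter driving the shRNA is not named in the labels. Total RNA was not analysed here, so the amount of a messenger RNA and its loading with ribosomes cannot be told apart, nor can fewer cells making it and less of it per cell.

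These proteins carry signals between neighbouring cells. VEGF proteins act on receptor tyrosine kinases of endothelial cells and guide the growth of blood and lymphatic vessels. Midkine and pleiotrophin form a family of their own and bind proteoglycans and receptor phosphatases, HGF acts through the receptor Met, FGFs through Fgfr receptors with heparan sulfate, and BDNF through Ntrk2. Mesenchymal stromal cells are known for secreting such factors, which is often called their paracrine action.

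The values are FPKM (fragments scaled to gene length and library depth), turned back into whole fragments where these are given. Fragments of recovered genes summed to between 21956260 and 26715178 per library, and 14461 to 16242 genes were above 0. Ifit1, the gene named as the target, was higher in the libraries labelled knockdown, at 13.9 and 14.8 FPKM against 1.93 and 1.91 (log2 change 2.39, limma adjusted p = 1.6e-04). This goes against the labels, so "knockdown" and "scrambled" below name only what a library is labelled. Of 15 stromal markers looked at, 8 were tested and all 8 rose, against 27.4% of all 8750 tested genes. Among them were Thy1 (8.29-fold), Eng, Ly6a and Vcam1. Of the 8, 2 (Eng among them) passed the limit for testing, a mean of 1 FPKM over the 4 libraries, only through the knockdown libraries. The listed stromal markers summed to 44.8 to 45.5 FPKM in the scrambled and 102 to 103 in the knockdown libraries. Pdgfra and Nt5e, also known from stromal cells, were at most 0.121 and 0.0347 FPKM. Endothelial markers summed to 1.63 to 1.72 FPKM in the scrambled and 4.48 to 4.70 in the knockdown libraries, nearly all of it Egfl7, while Pecam1, Tek and Vwf were at most 0.0114 FPKM. Leukocyte markers summed to 9.19 to 9.38 FPKM (1 of 2 tested rose, Cd14, and 1 fell, Coro1a). Adipocyte markers summed to 8.46 to 8.55 FPKM in the scrambled and 7.68 to 7.74 in the knockdown libraries. Of 3 tested, 1 rose (Cebpa) and 2 fell (Fabp4 and Pparg), and Pparg passed the limit only through the scrambled libraries. Epithelial and mesothelial markers summed to 165 to 170 FPKM in the scrambled and 102 to 103 in the knockdown libraries (3 of 5 rose, 1 fell). Most of this was Krt19, which fell from a mean of 163 to 91.8 FPKM. Krt8, Krt18 and Krt7 rose 9.14-fold, 6.15-fold and 3.25-fold, and passed the limit only through the knockdown libraries. Epcam and Cdh1, of the same list, were at most 0.0172 FPKM. Schwann and neural markers summed to 73.3 to 92.9 FPKM with overlapping groups (1 tested, not past). Of 14 genes read for RNA quality 2 were tested, ND1 higher and COX1 lower, and COX1 passed the limit only through the scrambled libraries. The part of these shifts in the results below was not tested.

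Libraries of the same label were very close for most genes and far apart for others, in a crossed way. Among 8750 tested genes the median difference between libraries of the same label was 0.0252 log2 units in the scrambled and 0.0294 in the knockdown group. Yet 1099 genes (12.56%) differed by over 0.3 log2 units within both groups, a limit chosen after the values were seen, and in 1093 of them (99.5%) the differences had opposite signs. In those genes scrambled 1 lay on the side of knockdown 2, and scrambled 2 on that of knockdown 1. Across genes, which share the same 4 libraries, the correlation of the within-group differences was -0.83. Gapdh, a glycolytic enzyme often used as a reference, was such a gene, at 275 and 163 FPKM in the scrambled and 161 and 268 in the knockdown libraries. Actb, cytoskeletal actin, was not, at 2838 and 2809 against 1809 and 1842 FPKM. The cause of the crossing was not tested, and it touches Vegfb and Vegfc directly.

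**Figure D1:**
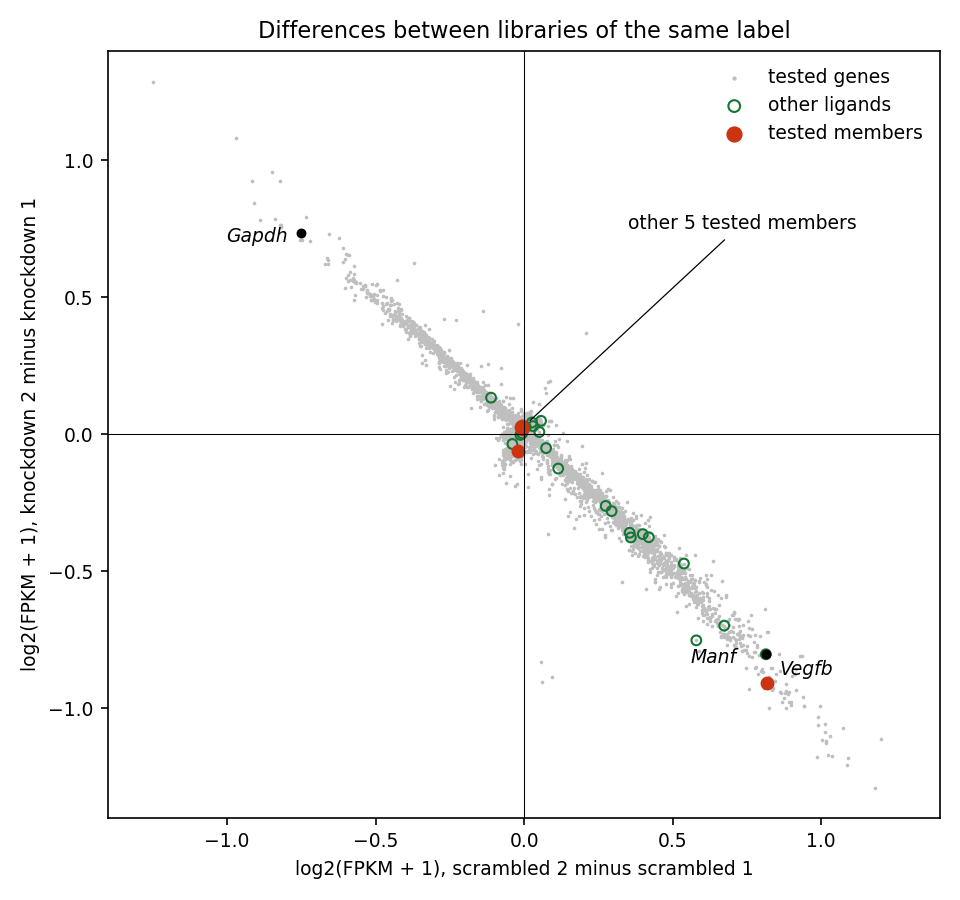
Difference between the libraries of the same label, in log2(FPKM + 1), for 8750 tested genes (6 lie outside the axes): scrambled 2 minus scrambled 1 on the horizontal axis, knockdown 2 minus knockdown 1 on the vertical axis. Grey points are all tested genes, green circles the other ligands and red points the tested members; Vegfb lies far out on the falling diagonal at 0.82 and -0.91, while the other 5 tested members lie near the origin.

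Across the 9 factors, Mdk, Ptn and Fgf7 rose, Vegfa and Bdnf fell, Vegfb did not pass the test, and Vegfc, Hgf and Fgf2 were below the limit for testing (a mean of 1 FPKM over the 4 libraries). Called here means an adjusted p under 0.05 in limma on log2(FPKM + 1). A fold is a ratio of mean FPKM, while a log2 change is a difference of log2(FPKM + 1). The added 1 makes log2 changes smaller in size than the folds, most at low levels. Of all 8750 tested genes 68.7% were called, 27.4% higher and 41.2% lower, so 5 called members of 6 tested is a share near the background. The libraries of the groups did not overlap for 7 of the 9 factors, against 58.6% of the table's 18200 genes. Mdk passed the limit only through the knockdown libraries. In the scrambled libraries the mean level fell from Vegfb (40.3 FPKM) through Vegfa (18.0), Fgf7 (12.3) and Ptn (9.67) to Bdnf (2.86) and Mdk (0.683). In the knockdown libraries Vegfb (40.3) was followed by Ptn (19.8), Fgf7 (16.2), Vegfa (14.1), Mdk (5.51) and Bdnf (1.80). Within each label no library values of neighbours in these orders overlapped. Vegfc, Fgf2 and Hgf stayed at or under 0.553 FPKM in every library, and among the knockdown libraries the ranges of Vegfc and Hgf overlapped and held the values of Fgf2.

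**Figure D2:**
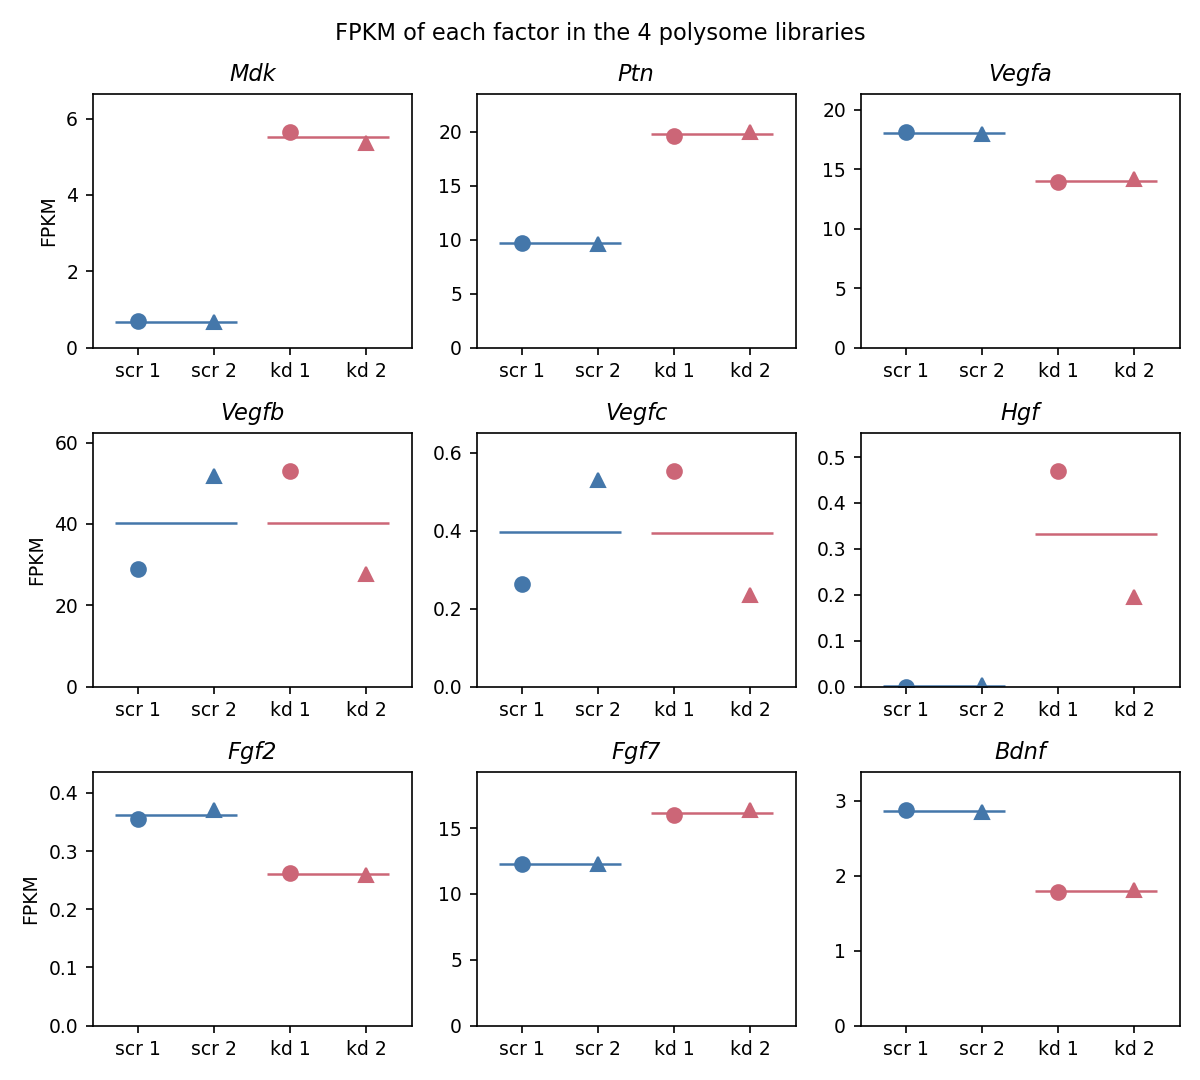
FPKM (vertical axes, each from 0) of the 9 factors in the libraries labelled scrambled (scr, blue) and knockdown (kd, red); circles are replicate 1 (batch 1), triangles replicate 2 (batch 2), and lines the mean of 2 libraries. Mdk, Ptn and Fgf7 sit higher and Vegfa, Bdnf and Fgf2 lower in both knockdown libraries, while for Vegfb and Vegfc scrambled 1 is level with knockdown 2 and scrambled 2 with knockdown 1.

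Mdk (Entrez 17242, chromosome 2, 91929805 to 91932297 on the minus strand of GRCm38 in GENCODE M21), a heparin-binding cytokine of embryonic and injured tissue, had the largest change of the tested members. It was at 0.694 and 0.671 FPKM in the scrambled libraries, from 23 and 27 fragments, and at 5.64 and 5.37 FPKM in the knockdown libraries, from 229 and 200. Both knockdown libraries were far above both scrambled ones. The means were 0.683 ± 0.0164 and 5.51 ± 0.192 (SD, n = 2), an 8.07-fold difference. In 0.537% of tested genes the log2 change was larger in size, in either direction. Limma gave a log2 change of 1.95 (SE 0.03, adjusted p = 1.6e-04), and the batches taken singly gave 1.97 and 1.93. Counting error alone gave an SE of 0.10, and with that as the smallest standard error the limma adjusted p was 0.0011.

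Ptn (Entrez 19242, chromosome 6, 36714929 to 36810220, minus strand), the only relative of midkine and a ligand of the receptor phosphatase Ptprz1, moved the same way from a higher level. Its FPKM was 9.69 and 9.64 in the scrambled and 19.6 and 20.0 in the knockdown libraries, from 519, 627, 1287 and 1202 fragments. The groups were clearly apart and the libraries within each nearly level. The means differed 2.05-fold. The change in log2(FPKM + 1) was 0.96 (SE 0.02, limma adjusted p = 1.6e-04), and 0.95 and 0.98 for the batches taken singly. With the counting SE of 0.05 as the smallest standard error the limma adjusted p was 0.0010. The libraries of Ptn lay 0.0893 counting SDs apart within the scrambled and 0.445 within the knockdown group. For Mdk, Fgf7, Vegfa and Bdnf these distances were 0.112 to 0.286 and 0.307 to 0.646. Such closeness does not show that the replicates were independent. By the measure of distance between centred log2(FPKM + 1) over the 4 libraries, the genes nearest to Mdk were Cystm1 (distance 0.0356), Crlf2 (0.0564) and Mlf1 (0.0702), which rose 4.14-fold, 5.65-fold and 4.81-fold. With 4 libraries in 2 groups this likeness describes little more than the size of the change.

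Fgf7 (Entrez 14178, chromosome 2, 126034658 to 126091185, plus strand), a factor made by stromal cells that acts on epithelium through Fgfr2, rose modestly. It was at 12.3 and 12.2 FPKM in the scrambled and at 16.0 and 16.4 in the knockdown libraries, a 1.32-fold difference. Both knockdown values lay above both scrambled ones. Its log2 change of 0.37 (SE 0.02, limma adjusted p = 5.2e-04) was exceeded in size by 52.3% of tested genes, and the batches singly gave 0.35 and 0.39. With the counting SE of 0.04 as the smallest standard error the limma adjusted p was 0.0040. Fgf2 (Entrez 14173, chromosome 3, 37348346 to 37410108), a broad mitogen without a classical secretion signal, was scarce, at 0.355 and 0.370 FPKM from 83 and 105 fragments against 0.262 and 0.259 from 75 and 68. Its libraries did not overlap, and the ratio of fragments per depth was 0.717 (95% exact interval 0.573 to 0.896, counting error only). Fgf2 entered only the fit without a limit on low values, with a log2 change of -0.11 (limma adjusted p = 0.0045). Its exons overlap Nudt6 on the opposite strand over 640 bases, and no source used here says whether the counting used strand.

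Vegfa (Entrez 22339, chromosome 17, 46016993 to 46032369, minus strand), the main inducer of blood vessel growth, fell. It was at 18.1 and 18.0 FPKM in the scrambled and at 13.9 and 14.2 in the knockdown libraries, from 2434, 2933, 2292 and 2144 fragments. Both knockdown libraries were below both scrambled ones, a 1.28-fold difference. Limma put the log2 change at -0.34 (SE 0.02, adjusted p = 6.2e-04), and the batches singly at -0.36 and -0.32. Its size depended on scaling: centring each library on its median shifted all tested genes (median change 0.15 in place of -0.02) and left -0.17 for Vegfa (limma adjusted p = 0.0293). Quantile normalization left -0.21 (adjusted p = 0.012), and taking out the trend of changes with gene length -0.20 (adjusted p = 0.0029). For the change of -0.34 the limma adjusted p was 0.0026 with the counting SE of 0.03 as the smallest standard error. Over the 8456 tested genes with an exonic length, changes were lower in longer genes (Spearman rho -0.39). The exonic length was 1324 bases for Mdk, 3433 for Ptn and 3248 for Fgf7, which rose. It was 4285 for Vegfa and 6217 for Bdnf, which fell. Why changes went with length was not tested.

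Vegfb (Entrez 22340, chromosome 19, 6982473 to 6987651, minus strand), a ligand of Flt1, was the most abundant of the 9 by FPKM, with libraries of the same label far apart. Its FPKM was 28.9 and 51.8 in the scrambled libraries and 52.9 and 27.7 in the knockdown libraries, from 1193, 2595, 2677 and 1286 fragments. Scrambled 2 and knockdown 1 were high, scrambled 1 and knockdown 2 low, and the groups overlapped fully. Within the scrambled group the libraries differed 1.79-fold, or 16.7 counting SDs, and within the knockdown group 1.91-fold, or 19.1. Only 68 tested genes (0.78%) were at least as far apart between the scrambled libraries, and 51 (0.58%) between the knockdown libraries. Knockdown 1 was 1.02 times scrambled 2, and scrambled 1 was 1.04 times knockdown 2. The group means were 40.3 ± 16.2 and 40.3 ± 17.8 FPKM (SD, n = 2), and the log2 change of -0.01 had a 95% interval of -1.57 to 1.55 (limma adjusted p = 0.99). Within batch 1 the change was 0.85 and within batch 2 -0.88, so the direction turned with the batch. Without scrambled 1 it was -0.42, without scrambled 2 0.40, without knockdown 1 -0.47 and without knockdown 2 0.44, with adjusted p from 0.55 to 0.59.

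Vegfc (Entrez 22341, chromosome 8, 54077606 to 54187096, plus strand), the lymphatic growth factor, showed the same crossed order at a far lower level. It was at 0.264 and 0.530 FPKM in the scrambled and at 0.553 and 0.235 in the knockdown libraries, from 16, 39, 41 and 16 fragments. The libraries differed by 2.51 counting SDs within the scrambled and by 3.13 within the knockdown group. Per depth the knockdown libraries had 0.977 times the fragments of the scrambled ones (95% exact interval 0.663 to 1.44), which covers counting error only and not the crossing. Vegfd, the closest relative of Vegfc and among the other ligands, was not crossed. It fell from 1.92 and 1.98 to 0.962 and 1.00 FPKM (log2 change -0.57, limma adjusted p = 2.4e-04), passed the limit on low values only through the scrambled libraries, and was picked for mention with these values known.

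The 250 bases before the outermost RefSeq start are shown for Vegfa and Vegfb, whose patterns differ although they are related, and for Fgf7, a factor that rose. They are RefSeq promoters of GRCm38.p6, at chr17:46032378-46032627 and chr19:6987652-6987901 on the minus strand and chr2:126034408-126034657 on the plus strand, and capitals mark the GC box GGGCGG on either strand.
Vegfa: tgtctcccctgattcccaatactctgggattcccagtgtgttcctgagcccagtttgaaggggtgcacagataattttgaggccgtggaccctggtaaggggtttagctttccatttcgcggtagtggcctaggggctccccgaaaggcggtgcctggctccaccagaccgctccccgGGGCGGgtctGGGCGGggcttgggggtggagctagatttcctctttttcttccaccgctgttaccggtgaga
Vegfb: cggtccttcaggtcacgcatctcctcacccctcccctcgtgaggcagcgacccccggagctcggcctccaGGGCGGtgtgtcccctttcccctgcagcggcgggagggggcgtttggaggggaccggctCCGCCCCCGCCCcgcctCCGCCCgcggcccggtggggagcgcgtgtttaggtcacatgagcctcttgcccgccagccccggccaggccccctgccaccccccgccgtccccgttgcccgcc
Fgf7: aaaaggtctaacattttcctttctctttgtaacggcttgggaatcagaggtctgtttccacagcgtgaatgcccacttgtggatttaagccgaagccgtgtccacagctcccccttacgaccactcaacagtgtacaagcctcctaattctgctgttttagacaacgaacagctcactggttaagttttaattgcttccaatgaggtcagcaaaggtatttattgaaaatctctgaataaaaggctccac
Vegfa held 2 GC boxes, Vegfb 4 and Fgf7 0. RefSeq starts can differ from the GENCODE starts given with each gene: these 3 windows lie outside the GENCODE gene, while that of Ptn lies in it over 41 bases and that of Fgf2 over all 250. RefSeq promoters were matched for 8 of the 9 factors (not for Mdk), and 4 of these held a GC box in the window at the outermost start (Vegfa, Vegfb, Vegfc and Fgf2), against 33% of 27025 gene promoters. The core of the interferon response element, read as GAAA, any pair of bases and GAAA, was in that window of Vegfa only (3.05% of promoters). TTCNNNGAA, the site of STAT factors, and ACGTG, the core of the hypoxia element, were in that window of Bdnf only (7.14% and 16.5%). TATAAA was in none of the 8 (13%). All motifs were read on both strands, and a match is a description of letters, not a binding site.

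Bdnf (Entrez 12064, chromosome 2, 109674700 to 109727007, plus strand), a neurotrophin that supports the survival of neurons, fell. It was at 2.87 and 2.85 FPKM in the scrambled and at 1.78 and 1.81 in the knockdown libraries, from 621, 749, 471 and 441 fragments. Both knockdown libraries were lower, a 1.59-fold difference. Limma gave -0.47 on the log2 scale (SE 0.02, adjusted p = 2.0e-04), and the batches singly -0.48 and -0.45. It was -0.29 after median-centring (adjusted p = 0.0035) and -0.17 with the length trend taken out (adjusted p = 0.0025). Its exons overlap the gene model Gm45346 on the opposite strand over 896 bases.

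Hgf (Entrez 15234, chromosome 5, 16553495 to 16620152, plus strand), a mitogen and motility factor for epithelium and endothelium, had almost no fragments in the scrambled libraries. It had 0 and 1 fragments there and 133 and 51 in the knockdown libraries, or 0 and 0.00356 against 0.469 and 0.196 FPKM. Both knockdown libraries were higher, and they differed from each other 2.39-fold, by 5.72 counting SDs. Per depth the ratio was 173 (95% exact interval 30.7 to 6887, counting error only), since it rests on 1 fragment. Hgf was not tested, and in the fit without a limit on low values its log2 change of 0.40 did not pass (limma adjusted p = 0.091). Its exons overlap Gm43489 on the same strand over 484 bases. For single values outside the fit, an exact two-sided permutation test of 2 libraries against 2 cannot go below 0.333.

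The 9 factors share features in the deposited annotation. All carry the term growth factor activity, held by 105 genes (0.577% of the table), and 6 of them (Mdk, Ptn, Vegfa, Vegfb, Fgf2 and Fgf7) the term heparin binding, held by 119 genes (0.654%). Of the 39 tested genes with growth factor activity 11 were higher and 12 lower. Of the 43 tested genes with heparin binding 9 were higher and 19 lower. The shares to set beside these counts and those of the lists below are 27.4% higher and 41.2% lower over all 8750 tested genes.

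Receptors of the 9 factors were mostly scarce in these cells. Of 20 listed, 16 were in the table, 5 were tested, and of these 1 rose, 2 fell and 2 did not pass. The median log2 change was -0.02, as over all tested genes (-0.02). This median is the value of Sdc4, for which the batches singly gave 0.36 and -0.40, so it does not show unchanged receptors. Sdc3, a proteoglycan that binds pleiotrophin, rose from 0.997 and 0.973 to 1.85 and 1.84 FPKM, and like Mdk it passed the limit only through the knockdown libraries. Fgfr1, the FGF receptor of mesenchymal cells, fell from 4.94 and 4.95 to 3.47 and 3.56 FPKM (log2 change -0.40, limma adjusted p = 3.9e-04), but was at 0.01 (adjusted p = 0.62) with the length trend taken out. Ncl, a nucleolar protein that can bind midkine and pleiotrophin at the cell surface, fell from 85.0 and 69.7 to 42.9 and 50.7 FPKM (log2 change -0.71, limma adjusted p = 0.025). Ncl did not pass with batch as a block (adjusted p = 0.080), with the length trend taken out (-0.30, adjusted p = 0.18), or without scrambled 1, knockdown 1 or knockdown 2 (adjusted p = 0.067, 0.13 and 0.074). Fgfrl1, an FGF receptor without a kinase, and the proteoglycan Sdc4 did not pass and were crossed like Vegfb. Fgfrl1 had 2.93, 5.27, 5.30 and 2.84 FPKM and Sdc4 7.48, 10.1, 9.86 and 7.41 in scrambled 1, scrambled 2, knockdown 1 and knockdown 2.

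The remaining receptors were below the limit. Met, the receptor of HGF, was at 0.594 to 0.705 FPKM with overlapping groups. Nrp2, a co-receptor of VEGF-C, was at 0.428 and 0.438 against 0.0968 and 0.0953 FPKM, and Nrp1, a co-receptor of VEGF-A, at 0.322 and 0.318 against 0.461 and 0.465. Lrp1, a large endocytic receptor that binds midkine, was at 0.770 and 0.768 against 0.402 and 0.410 FPKM, and Fgfr2, the receptor of FGF7, at 0.372 and 0.378 against 0.185 and 0.196. Flt1 and Flt4, VEGF receptors of endothelium, Alk, Ptprz1 and Sort1 were at most 0.0495 FPKM in every library, and Fgfr3 at most 0.241. The other 4 listed, Kdr, Fgfr4, Ntrk2 and Ngfr, had no entry under these symbols among the 18200 genes. All 18200 were above 0 in at least 1 library, so a gene at 0 in every library has no entry. Whether these 4 had no fragments or another symbol was not tested.

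Genes that process or bind the factors went both ways. Of 28 listed and 11 tested, 3 rose and 4 fell, against 27.4% and 41.2% of all tested genes. Of the 7 called, 2 passed the limit only through the group where they were high. Gpc1 and Sdc1, heparan sulfate proteoglycans, rose 2.62-fold and 1.93-fold. Ext1, which builds heparan sulfate chains, fell from 14.5 to 7.38 and 7.57 FPKM, and Plau, a protease that can activate pro-HGF, from 3.35 and 3.40 to 1.68 and 1.73.

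Among 57 other paracrine ligands 21 were tested, of which 3 rose, 5 fell and 13 did not pass. The number that rose depended on the processing: it was 6 after median-centring, 5 after quantile normalization or with the length trend taken out, 7 with the crossed pairing as a block, and 19 against 11 that fell without the limit on low values. Of the 8 called, 4 (Gdnf, Lif, Ntf5 and Vegfd) passed the limit only through the group where they were high. The matricellular Ccn1 fell from 394 and 410 to 137 and 141 FPKM and Ccn2 2.16-fold, the platelet-derived factor Pdgfc fell 2.47-fold, and Gdnf, a neurotrophic factor, fell from 2.27 and 2.39 to 0.406 and 0.414 FPKM. Of the 13 that did not pass, 8 were crossed by over 0.3 log2 units within both groups, 38.1% of those tested against 12.5% of all tested genes. Examples chosen after their values were seen are Manf, at 25.7, 45.9, 45.1 and 25.4 FPKM in scrambled 1, scrambled 2, knockdown 1 and knockdown 2, and the chemokine Cxcl12, at 3.40, 6.01, 6.01 and 3.32. For these ligands, as for Vegfb, the libraries within a label differed more than the group means.

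The list of secreted inhibitors of angiogenesis had 2 of 6 tested members higher and 4 lower, against 27.4% and 41.2% of all tested genes. Cxcl10, an angiostatic chemokine, rose 3.72-fold and Serpinf1, which encodes the anti-angiogenic PEDF, 2.57-fold, while Adamts1, a protease that binds VEGF, fell 3.04-fold. Vash2, counted in this list and 1 of the 4 lower, fell 2.12-fold, but it is known to promote angiogenesis. The inhibitory vasohibin Vash1, picked with its values known, was below the limit, with a mean of 0.154 FPKM in the scrambled and 0.356 in the knockdown libraries. In the hypoxia control of Vegfa, 2 of 7 tested genes rose and 3 fell. Arnt, the partner of HIF-1alpha, fell from 15.1 and 15.0 to 6.89 and 7.03 FPKM and Hif1an, an asparagine hydroxylase that restrains HIF, 1.68-fold. Vhl, which marks HIF for degradation, fell 1.28-fold, and the prolyl hydroxylase Egln2 rose 1.91-fold. Hif1a itself, picked with its values known, did not pass, at 22.5 and 16.4 against 14.6 and 19.9 FPKM.

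Genes that respond to growth factor receptor kinases had 6 of 14 tested members higher, against 27.4% of all tested genes, and the other 8 did not pass. Of the 6, 1 passed the limit only through the knockdown libraries. With the length trend taken out 2 of the list were lower. Etv4, an ETS factor induced by FGF signalling, rose from 10.6 and 10.5 to 38.5 and 38.4 FPKM (log2 change 1.78, limma adjusted p = 1.6e-04). Dusp6, the phosphatase of ERK, rose 2.82-fold, Etv5 2.08-fold and Dusp4, another ERK phosphatase, 1.94-fold. The immediate-early genes of the list, Egr1, Fos and Ier3, did not pass and were crossed within the labels. All lists were chosen with earlier results of these data known, so their counts are descriptions.

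**Figure D3:**
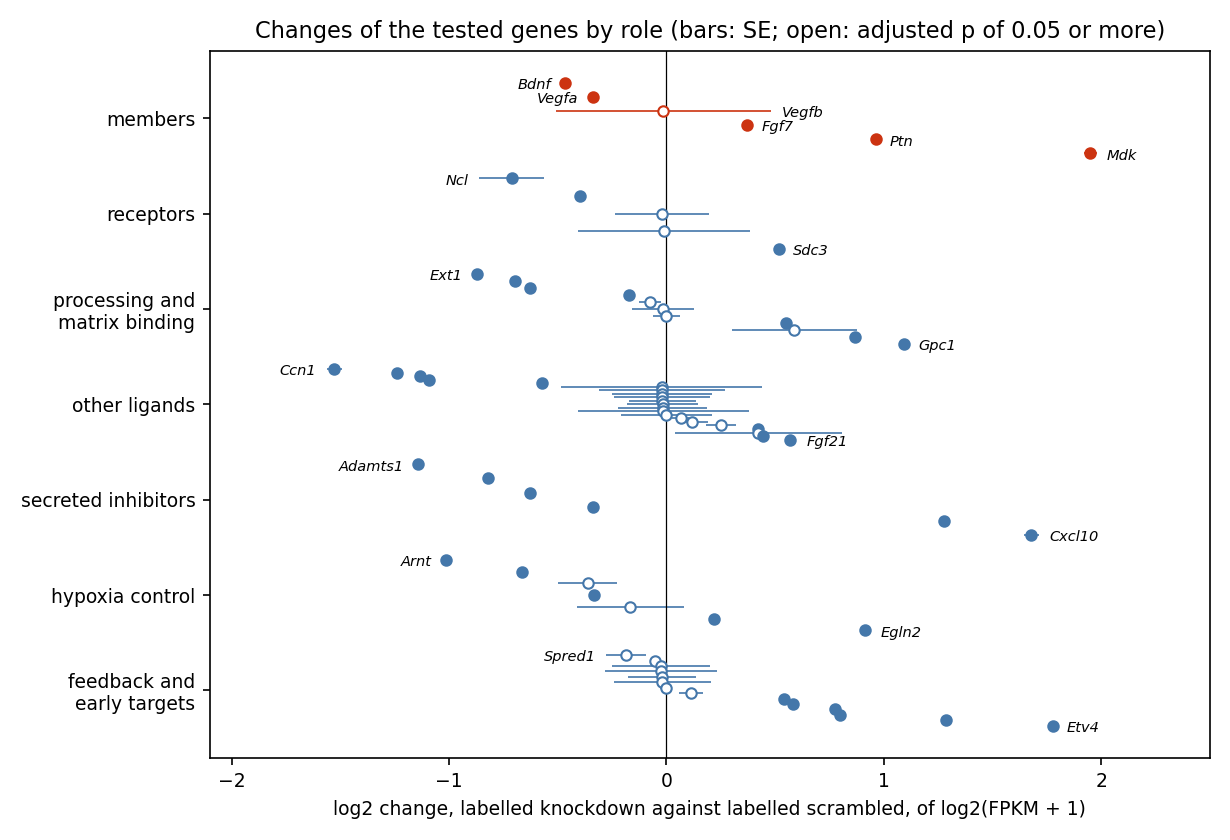
Log2 change of log2(FPKM + 1), labelled knockdown against labelled scrambled, for the tested genes by role; points are single genes, bars the limma SE, filled points have an adjusted p under 0.05, and the names are all members and the extremes of each other list. Among the members Mdk (1.95) lies farthest to the right and Bdnf (-0.47) farthest to the left, and Vegfb has a bar many times wider than the others.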

How the data were processed

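Polysome RNA of 4 libraries was analysed from a table of FPKM computed by the authors, named as FPKM per the labels. The submitters' processing notes name the builds GRCm38, mm10 and GRCm39 with no role. No source used here gives the aligner, the counting or its strandedness. Gene positions come from GENCODE M21 (GRCm38). Within a library FPKM are whole fragments times a constant of the gene, and whole fragments (up to 60000, or a divisor of the true number) were recovered for 8645 (98.8%) of the tested genes and used for depth and counting error only; on simulated fragments, 563 of 563 genes were recovered.

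Genes with a mean of at least 1 FPKM were tested (8750 of 18200) on log2(FPKM + 1) with limma 3.58.1 (trend, no batch term) in R 4.3.3, two-sided, Benjamini-Hochberg over all tested genes, threshold 0.05. In simulated data limma called 95 of 100 genes changed by 0.5 log2 units and 16 of 8445 unchanged ones. The simulation had counting error, a small spread equal for all genes, and no crossing. In the data the median gene lay 0.528 counting SDs apart in the scrambled and 0.661 in the knockdown group. Yet 21.3% of genes in the scrambled and 22.0% in the knockdown group lay over 3 counting SDs apart. The simulated rates therefore need not hold for the data. Replicate numbers coincide with the labelled batch, which pairs them. The median limma SE (0.0208) was below the median counting SE (0.0383), so p-values can understate counting error. Named were the 9 factors, their receptors, the 4 called genes of each other list with the largest change, the 3 genes nearest to Mdk, Ifit1, Actb and Gapdh. Outside this rule, and with their values known, Vegfd, Hif1a, Manf, Cxcl12, Egr1, Fos, Ier3, Vash1, Pdgfra, Nt5e, Pecam1, Tek, Vwf, Epcam, Cdh1, Lif and Ntf5 were named. Members and lists were chosen with earlier results of these data known. Python 3.11.15, numpy 2.4.6, pandas 2.3.3, scipy 1.17.1 and matplotlib 3.10.9 were used.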

Additional observations from a re-analysis of the deposited data

Results flagged for a closer look

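For 15 of the genes named here the change had opposite signs in the 2 batches, and the difference was not tested. The change in batch 2 minus that in batch 1 was -1.73 log2 units for Vegfb (0.85 in batch 1 and -0.88 in batch 2) and -0.61 for Vegfc (0.30 and -0.31). Among the receptors it was -1.39 for Fgfrl1, -0.76 for Sdc4, -0.29 for Fgfr3 and -0.17 for Met. Among the other ligands it was -1.62 for Manf and -1.37 for Cxcl12, and among the early targets -0.89 for Egr1, -0.78 for Ier3 and -0.77 for Fos. The order was the opposite one for Gapdh (1.49) and Hif1a (0.86). In these 13, scrambled 1 was nearer to knockdown 2 and scrambled 2 nearer to knockdown 1 than the libraries of the same label were to each other. Ptprz1 (0.0050) and Nt5e (0.062) also turned, at levels of at most 0.0347 FPKM.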

How the results depend on the processing

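The 5 called members kept their direction and their call under all 12 alternatives: changes ran from 1.66 to 2.84 for Mdk, 0.95 to 1.14 for Ptn, 0.36 to 0.55 for Fgf7, -0.36 to -0.17 for Vegfa and -0.64 to -0.17 for Bdnf. Of all genes, 3819 were higher without the filter (2401 with it). With batch as a replicate block 2205 were higher and 3417 lower, no member's call changed, and the receptors had 1 lower gene (Ncl lost). Same-numbered libraries deviated in opposite directions, and with the crossed pairing as block, added after the data were seen, 2962 were higher and 4282 lower, with 7 other ligands higher, 5 hypoxia genes lower and 2 feedback genes lower. Without the filter the receptors had 3 higher and 6 lower, the processing genes 8 lower, the other ligands 19 higher and 11 lower and the hypoxia genes 6 lower, since more genes were tested. With the length trend removed the receptors had 0 lower, the processing genes 5 higher, the other ligands 5 higher and the feedback genes 2 lower, Fgfr1 turned to 0.012 and the leukocyte marker Cd14 to -0.029. The other ligands had 6 higher after median-centring and 5 after quantile normalization. Hypoxia genes had 1 higher when no standard error was allowed under the counting error. Leaving out 1 library gave 1 to 2 lower receptors. The cause of these shifts was not tested where none is named. Vegfc, Hgf and Fgf2 were kept from the test by the limit on FPKM.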
